A study of Mus musculus with 3 samples.

Results

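The genes described here are 37 mouse genes that encode writers and erasers of histone methylation, 24 writers and 13 erasers. They were taken by gene symbol from the annotation of the deposited transcript tables and joined by gene identifier to the gene tables. All 37 were found among the 55536 gene identifiers measured, of which 22028 are protein-coding. RNA had been isolated from the chromatin fraction of primary macrophages grown from bone marrow of C57BL/6J mice, depleted of ribosomal RNA and sequenced as total RNA. The cells had been exposed to Lipid A, the part of bacterial endotoxin that activates Toll-like receptor 4, at 100 ng/ml for 12 h. They were then kept without it for 12 h and exposed to 100 ng/ml again for 10 min. The series holds 3 libraries of this 1 condition, labelled biological replicates 1, 2 and 3, which are separate biosamples under 1 donor identifier. The labels name no genetic change and record neither the sex nor the age of the mice. There is no untreated library, so all values are levels after the second exposure, and no effect of Lipid A could be measured.

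Writers of histone methylation carry a methyl group from S-adenosylmethionine to a lysine, in nearly all cases through a SET domain. Erasers remove it, either by amine oxidation, as in the KDM1 proteins, or through a JmjC domain that uses iron and 2-oxoglutarate. Methylation of H3K4 marks promoters and enhancers, that of H3K36 and H3K79 marks transcribed genes, and that of H3K9 and H3K27 marks silenced chromatin. In macrophages, marks on H3K4 at enhancers are known to be laid down during endotoxin responses, and Kdm6b is known as an endotoxin-induced eraser of H3K27 methylation.

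Chromatin-bound RNA includes transcripts that are still being made and spliced, and the annotation lists many transcripts that keep an intron. For 7 members, at least 50% of the gene's TPM (a transcript's share of all transcripts, scaled for its length) was assigned to such retained-intron transcripts in all 3 libraries. The share of other genes that meet this rule is not given here. Over the 6342 protein-coding genes with such a transcript that reached 1 TPM in each library, the median share was 45.6% ± 0.711 (SD, n = 3). The sequences below show, for each of these 7 genes, the first place where a retained-intron transcript runs on past the end of a coding exon into the intron. The last 30 bases of the coding exon are in lower case and the first 30 bases of the intron in capitals. Places were searched from the transcript's start in the retained-intron transcripts in order of TPM, and only those where the intron begins with GT were taken. Sequences are from the GENCODE M21 transcripts, on the gene's strand, with mm10 coordinates.
Eed, the H3K27 methylation reader within the PRC2 complex, transcript Eed-203, chr7:89972201-89972260, minus strand: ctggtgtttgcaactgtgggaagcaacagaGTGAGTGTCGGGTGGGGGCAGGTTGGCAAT
Kdm1a, the H3K4 demethylase LSD1, transcript Kdm1a-204, chr4:136553766-136553825, minus strand: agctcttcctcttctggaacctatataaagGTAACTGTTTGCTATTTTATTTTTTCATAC
Setdb1, an H3K9 methyltransferase, transcript Setdb1-204, chr3:95338316-95338375, minus strand: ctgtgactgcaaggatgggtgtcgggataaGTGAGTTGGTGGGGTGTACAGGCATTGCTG
Smyd5, a SET and MYND domain methyltransferase, transcript Smyd5-202, chr6:85441779-85441838, plus strand: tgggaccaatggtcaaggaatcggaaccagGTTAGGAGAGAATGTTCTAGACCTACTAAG
Kdm3a, an H3K9 demethylase, transcript Kdm3a-208, chr6:71590628-71590687, minus strand: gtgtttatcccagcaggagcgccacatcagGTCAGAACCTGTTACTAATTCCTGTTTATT
Kdm2b, an H3K36 demethylase that binds CpG islands, transcript Kdm2b-212, chr5:122878405-122878464, minus strand: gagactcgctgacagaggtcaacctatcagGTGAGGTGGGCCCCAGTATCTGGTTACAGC
Kdm2a, its paralogue, transcript Kdm2a-209, chr19:4394762-4394821, minus strand: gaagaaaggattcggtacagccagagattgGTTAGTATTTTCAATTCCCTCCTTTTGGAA
These are reference sequences and not reads. Each shows a single boundary in a single retained-intron transcript, whereas the shares below sum all such transcripts of a gene.

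Depth was 13538605, 19949204 and 18224466 expected counts on genes in replicates 1, 2 and 3, so a gene with no counts could lie at up to 0.222, 0.15 and 0.165 CPM (counts scaled to the library's total), by counting error only. Macrophage markers were present, with 12 of 12 reaching 1 TPM in each library, led by Gpnmb at 924 ± 94.6 TPM and Sirpa at 733 ± 50.3 TPM (SD, n = 3). Of the markers of other cells, 0 of 7 for T and NK cells, 0 of 6 for B cells, 0 of 8 for neutrophils, 0 of 5 for erythroid cells and 0 of 5 for fibroblasts reached that level in the gene tables. Their summed TPM ranged from 0.05 to 0.28 for T and NK cells, from 0.3 to 1.25 for B cells, from 0.58 to 0.72 for neutrophils, from 0.1 to 1.39 for erythroid cells and from 0 to 1.57 for fibroblasts. Of 5 dendritic cell markers, 1 reached it, Zbtb46 at 1.13 ± 0.147 TPM, and their summed TPM ranged from 1.86 to 2.43. Cd3e, Elane, S100a8, S100a9, Ly6g and Hbb-bt were at 0 counts in all 3 gene tables. The deposited tables made straight from the reads, compared after seeing the data, held 2 of 7 T and NK cell markers, 1 of 8 neutrophil markers and 2 of 5 dendritic cell markers at that level, and 0 of the B cell, erythroid and fibroblast markers. The summed T and NK cell level there was 15.02 to 19.55 TPM, mostly from Cd3d at 15.39, 11.58 and 14.27 TPM.

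All 37 genes were detected, meaning that they reached 1 TPM in each of the 3 libraries, where 45.6% of all protein-coding genes did so. In the gene tables their mean levels spanned from 5.24 TPM for Kdm1b to 151.9 TPM for Ehmt2, with a median of 33.2 TPM. The deposited tables made straight from the reads had other extremes, Suv39h1 at 5.94 TPM and Nsd1 at 165 TPM. Detected protein-coding genes had a median of 12.1 TPM in the gene tables. On the scale of log2(TPM + 0.1), the median over the 37 genes was 5.05, 5.25 and 4.99 in replicates 1, 2 and 3, above the median of 3.52, 3.72 and 3.56 over all detected protein-coding genes in the same libraries. The 37 genes held 0.695%, 0.649% and 0.648% of the expected counts on genes in the 3 libraries. In RNA from many cells, fewer cells with a transcript and less of it per cell cannot be told apart.

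**Figure D1:**
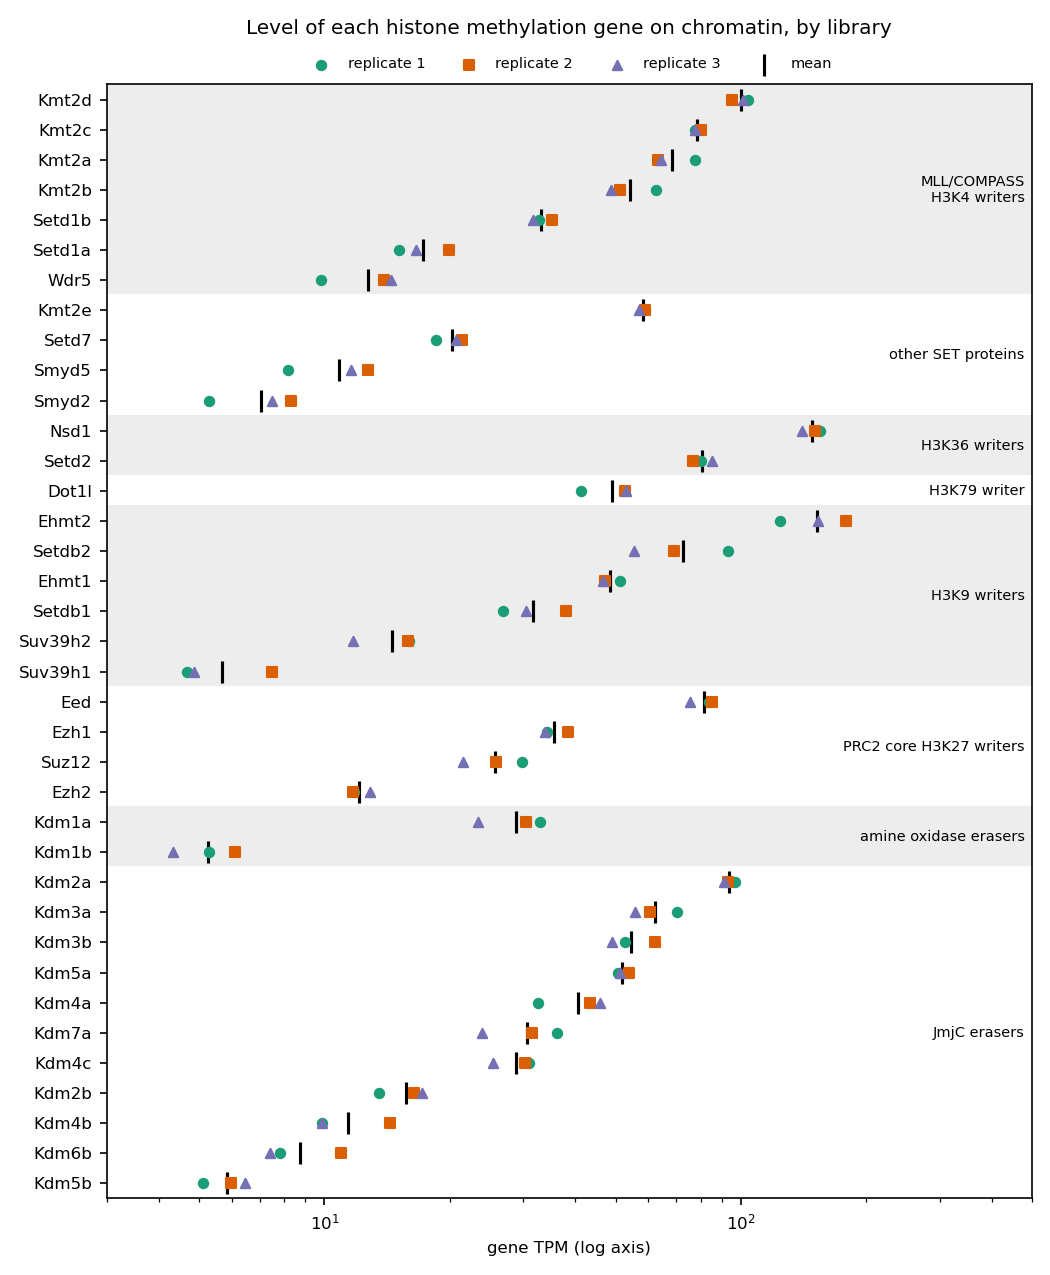
TPM of the 37 genes (log axis) in replicates 1, 2 and 3, grouped by role and sorted by mean within a role, with a vertical tick at the mean. The genes lie between 4.33 and 178.68 TPM, with Ehmt2 highest and Kdm1b lowest by mean.

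Of the MLL/COMPASS enzymes, which methylate H3K4, Kmt2d was highest in every library. Kmt2d (MLL4), which places monomethylation at enhancers, had 104.19, 95.36 and 101.20 TPM in replicates 1, 2 and 3. Its partner enzyme Kmt2c (MLL3) had 77.65, 80.05 and 77.75 TPM, so that the ranges of these enzymes did not overlap and those of the 3 libraries lay close together. Kmt2a (MLL1), which acts at Hox genes and other CpG island promoters, had 77.73, 63.19 and 64.28 TPM, level with Kmt2c in replicate 1. In the deposited tables made straight from the reads, Kmt2a averaged 84.1 TPM and Kmt2c 74.7 TPM. Kmt2b (MLL2), the closest relative of Kmt2a, had 62.64, 51.12 and 48.73 TPM. Kmt2a and Kmt2b were both highest in replicate 1 by TPM, but in replicate 3 by log2 CPM. In log2 CPM Kmt2a had 9.56, 9.52 and 9.60 and Kmt2b had 7.60, 7.79 and 7.82. The retained-intron transcript Kmt2b-208 had 19.49, 0 and 0 TPM in replicates 1, 2 and 3. The SETD1 enzymes supply most trimethylation of H3K4 at active promoters. Setd1b had 32.70, 35.14 and 31.64 TPM, and Setd1a had 15.13, 19.94 and 16.63 TPM, the lowest of the 6 catalytic subunits. Setd1a shares 51.8% of its exon bases with the overlapping gene Gm49388 on the same strand, which had 0.06 TPM, so the split of reads between them is uncertain. Wdr5, the scaffold that all these complexes share, had 9.84, 13.89 and 14.49 TPM and was lowest in replicate 1.

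Partners of these complexes were also present, with 11 of 12 genes of a list of COMPASS partners detected. Psip1, which tethers MLL1 to chromatin, had 44.4 ± 2.27 TPM, Ncoa6, a subunit of the MLL3 and MLL4 complexes, had 43.8 ± 5.76 TPM, and Pagr1a was lowest at 0.223 ± 0.193 TPM (SD, n = 3). The median of this list was 4.17 ± 0.09 on the scale of log2(TPM + 0.1), and that of the 7 COMPASS members was 5.75 ± 0.19.

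Among the other SET proteins, Kmt2e stood apart from the rest. It encodes MLL5, whose SET domain is not thought to methylate histones, and had 58.76, 58.91 and 56.80 TPM. Kmt2e shares 9.31% of its exon bases with Srpk2, a gene on the other strand with 53.7 TPM. Setd7, which monomethylates H3K4 and other proteins, had 18.51, 21.43 and 20.74 TPM. The SMYD enzymes were lower, with Smyd5 at 8.16, 12.72 and 11.60 TPM and Smyd2 at 5.27, 8.32 and 7.49 TPM. Both were lowest in replicate 1, and Smyd2, with 134 expected counts on average, was the most thinly covered of the 37 genes. Smyd2 also shares 814 of its exon bases with the antisense gene Gm37422, and since the handling of strand is not given in the sources used here, reads of such pairs cannot be told apart.

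The H3K36 writers were among the most abundant members. Nsd1, which places mono- and dimethylation, had 154.90, 150.23 and 139.85 TPM, and its range lay above that of every member apart from Ehmt2. Setd2, the trimethylase that travels with elongating RNA polymerase II, had 80.05, 76.91 and 85.08 TPM. Dot1l, the H3K79 methyltransferase, had 41.31, 52.69 and 53.04 TPM and was lowest in replicate 1. In a list of 18 other lysine methyltransferases, 14 were detected. The highest was Setd5 with 147.6 ± 13.6 TPM, followed by Nsd3, a paralogue of Nsd1, with 142 ± 20.2 TPM (SD, n = 3). Mecom was lowest, listed at 0 TPM in all 3 libraries.

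The H3K9 writers spread over the widest range of levels of any role. Ehmt2 (G9a), which dimethylates H3K9, had 123.92, 178.68 and 153.09 TPM, and its partner Ehmt1 (GLP) had 51.33, 47.30 and 46.68 TPM. Every library thus held more Ehmt2 than Ehmt1. Setdb2 had 93.14, 69.27 and 55.49 TPM, with replicate 1 the highest and a spread of 19.0 TPM (SD, n = 3). In mice Setdb2 is known as an interferon-induced gene. Setdb1, which silences retroelements with Trim28, had 26.78, 38.07 and 30.43 TPM and was below Setdb2 in every library. The SUV39 enzymes, which trimethylate H3K9 in pericentromeric heterochromatin, were lowest. Suv39h2 had 15.93, 15.88 and 11.70 TPM, and Suv39h1 had 4.69, 7.50 and 4.86 TPM. Suv39h2 shares 8.1% of its exon bases with Dclre1c on the other strand, a gene at 110 TPM, and Suv39h1 shares 14.6% with the antisense gene Gm14820 at 0.41 TPM.

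All 8 genes of a list of H3K9 methylation readers and partners were detected. Atf7ip, the cofactor of Setdb1, had 90.1 ± 3.10 TPM, Trim28, the corepressor that brings Setdb1 to its targets, had 39.1 ± 8.88 TPM, and Cdyl was lowest at 3.81 ± 0.428 TPM (SD, n = 3). Of 9 arginine methyltransferases, which modify other residues of histones, 8 were detected. Prmt9 was highest at 27.8 ± 5.96 TPM, Carm1 came next at 17.1 ± 1.52 TPM, and Prmt8 was listed at 0 TPM in all libraries.

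The core of PRC2, the complex that methylates H3K27, was carried unequally by its subunits. Eed had 83.82, 85.45 and 75.61 TPM, the highest of the 4 genes in every library. On average 85.7% of this lay on retained-intron transcripts. With coding transcripts only, Ezh1 was the highest of the 4 genes at 17.6 ± 1.89 TPM, and Eed had 11.5 ± 1.46 TPM. In mean expected counts Eed, at 694, lay below Ezh1 at 1120 and Suz12 at 784. Suz12, the scaffold subunit, had 29.79, 25.89 and 21.51 TPM. Of the alternative catalytic subunits, Ezh1, which is known to prevail in resting cells, had 34.24, 38.38 and 33.95 TPM. Ezh2, which is known to prevail in dividing cells, had 11.80, 11.71 and 12.84 TPM. The ranges of Ezh1 and Ezh2 did not overlap, and Ezh1 was higher in 3 of 3 libraries. Of 8 PRC2 partners 7 were detected, led by Aebp2 at 35.2 ± 4.34 TPM and Mtf2 at 34.7 ± 3.82 TPM, which help PRC2 bind chromatin, with Epop lowest at 0.0433 ± 0.0153 TPM (SD, n = 3).

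The amine oxidase erasers differed widely. Kdm1a had 32.96, 30.45 and 23.33 TPM, and Kdm1b (LSD2), known for H3K4 demethylation in growing oocytes, had 5.29, 6.11 and 4.33 TPM, the lowest mean of the 37 genes. Kdm1b shares 9.19% of its exon bases with Dek on the other strand, a gene at 46.7 TPM. Of 8 partners of LSD1, 7 were detected. Hmg20b, a subunit of the CoREST complex, had 101.3 ± 14.7 TPM, Phf21a, its reader of unmethylated H3K4, had 73.6 ± 19.3 TPM, and Rcor2 was lowest at 0.487 ± 0.240 TPM (SD, n = 3).

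Among the JmjC erasers, Kdm2a was highest in every library in the gene tables. This H3K36 demethylase had 96.72, 93.21 and 91.19 TPM, and Kdm2b had 13.51, 16.44 and 17.18 TPM. The H3K9 demethylases Kdm3a and Kdm3b lay close together. Kdm3a had 70.30, 60.60 and 55.79 TPM and Kdm3b had 52.70, 62.04 and 49.02 TPM, with overlapping ranges and Kdm3a higher in replicates 1 and 3 only. Kdm3b shares 24.6% of its exon bases with Gm26538, a noncoding gene on the other strand at 10.5 TPM. In the deposited tables made straight from the reads, Kdm3b had 111.65, 146.87 and 125.72 TPM. Kdm2a had 143.06, 126.55 and 120.01 TPM there, so Kdm3b was the higher in replicates 2 and 3. With coding transcripts only, Kdm3b was above Kdm2a in replicate 2, at 41.35 against 40.19 TPM.

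The KDM4 enzymes remove methyl groups from H3K9 and H3K36. Kdm4a had 32.60, 43.38 and 45.90 TPM, Kdm4c had 30.99, 30.23 and 25.33 TPM, and Kdm4b had 9.85, 14.38 and 9.88 TPM. Kdm4b lay below both others in every library. The KDM5 enzymes demethylate H3K4. Kdm5a had 50.56, 53.86 and 51.33 TPM and Kdm5b had 5.11, 5.97 and 6.43 TPM, so that their ranges were far apart.

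Kdm6b (JMJD3), the H3K27 demethylase, had 7.81, 10.94 and 7.42 TPM and ranked 33rd of the 37 genes by mean TPM. The list of 11 other JmjC genes, of which 7 were detected, held its X-linked relative Kdm6a (UTX) at 72.2 ± 9.68 TPM (SD, n = 3). Jmjd1c, a relative of Kdm3a, was the highest of that list at 174 ± 5.87 TPM, above every one of the 37 genes in mean, and Hr was lowest at 0.03 ± 0.0436 TPM. Kdm7a, which demethylates H3K9 and H3K27, had 36.25, 31.58 and 23.89 TPM.

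As a group, the 24 writers had a higher median than the 13 erasers. The writers counted here include the scaffolds Wdr5 and Suz12, the reader Eed, and Kmt2e, whose SET domain is not thought to methylate histones. The median of log2(TPM + 0.1) was 5.24, 5.42 and 5.32 for writers and 5.03, 4.93 and 4.58 for erasers in replicates 1, 2 and 3. The difference was 0.21, 0.48 and 0.73 in these libraries, with a mean of 0.47 ± 0.26 (SD, n = 3). It was positive in all 3 libraries, and no p is given for a value over a chosen list. The 18 other lysine methyltransferases had medians of 3.906, 3.989 and 3.955 in replicates 1, 2 and 3. The 11 other JmjC genes had 3.76, 4.138 and 4.091. In these lists the order held in replicate 1 only, so it depends on the genes chosen. Among the 37 genes, writers spanned 5.68 to 151.9 TPM and erasers 5.24 to 93.7 TPM, so the classes overlapped over nearly their whole range. When the 37 genes were put in order of mean TPM, 32 of the 36 neighbouring pairs had overlapping ranges over the libraries. Ranges did not overlap between Nsd1 and Kmt2d, Kdm2a and Eed, Ehmt1 and Kdm4a, or Suz12 and Setd7, the first of each pair being higher.

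Related genes were then set against each other within each library. In 12 of 13 pairs of paralogues the difference had 1 sign in all 3 libraries. The same count over other pairs of genes is not given here, so it cannot be read as particular to these paralogues. With 3 libraries the exact two-sided sign-flip test cannot give a p under 0.25, which is the p of each of those 12 pairs, so none can pass 0.05 and no adjusted p can either. Kdm5a exceeded Kdm5b by 3.28, 3.15 and 2.98 on the scale of log2(TPM + 0.1), a mean of 3.14 ± 0.15 or 8.80-fold. Kdm2a exceeded Kdm2b by 2.58 ± 0.23 (5.96-fold) and Kdm1a exceeded Kdm1b by 2.44 ± 0.16 (5.42-fold). The size of these differences depended on what was counted. With coding transcripts only, an alternative added after seeing the data, Kdm5a exceeded Kdm5b by 2.04 ± 0.04 and Kdm1a exceeded Kdm1b by 0.89 ± 0.09 (1.85-fold). In log2 CPM, which is not scaled for length, Kdm1a exceeded Kdm1b by 0.69 ± 0.06. In the read-based tables, which the authors made straight from the reads, Kdm2a exceeded Kdm2b by 1.97 ± 0.08.

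Ezh1 exceeded Ezh2 by 1.53, 1.70 and 1.40, a mean of 1.54 ± 0.16 or 2.91-fold, and by 2.22 in log2 CPM. Kdm4a exceeded Kdm4b by 1.84 ± 0.33 (3.57-fold) and Kdm4c by 0.48 ± 0.39, where the difference was only 0.07 in replicate 1. In the read-based tables Kdm4a exceeded Kdm4b by 0.64 ± 0.45, and Kdm4a and Kdm4c differed by 0.03 ± 0.31. With coding transcripts only, Kdm4a exceeded Kdm4b by 1.20 ± 0.22. Negative differences, where the gene named second was higher, were found for Ehmt1 minus Ehmt2 at -1.63 ± 0.33, Suv39h1 minus Suv39h2 at -1.36 ± 0.35, and Setdb1 minus Setdb2 at -1.17 ± 0.54. The last of these was -1.79 in replicate 1 but -0.86 in replicates 2 and 3. It was -0.25 ± 0.58 in log2 CPM and -2.48 ± 0.61 with coding transcripts only. Suv39h1 minus Suv39h2 was -2.20 in log2 CPM and -2.37 with coding transcripts only. Setd1a minus Setd1b was -0.95 ± 0.15, and in the read-based tables it was 0.095 ± 0.098, so its direction depends on the quantification. With coding transcripts only it was -0.29 ± 0.09.

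The large H3K4 enzymes differed by less in TPM than the pairs above. Kmt2a exceeded Kmt2b by 0.34 ± 0.05, and by 1.82 in log2 CPM and 1.08 with coding transcripts only. Kmt2c minus Kmt2d was -0.35 ± 0.09, and -0.99 in log2 CPM. Kdm3a minus Kdm3b was 0.19 ± 0.22 and had 1 sign in only 2 of 3 libraries (exact sign-flip p = 0.5), so these genes could not be told apart by TPM. With coding transcripts only, Kdm3a minus Kdm3b was -1.15 ± 0.15, negative in all 3 libraries.

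**Figure D2:**
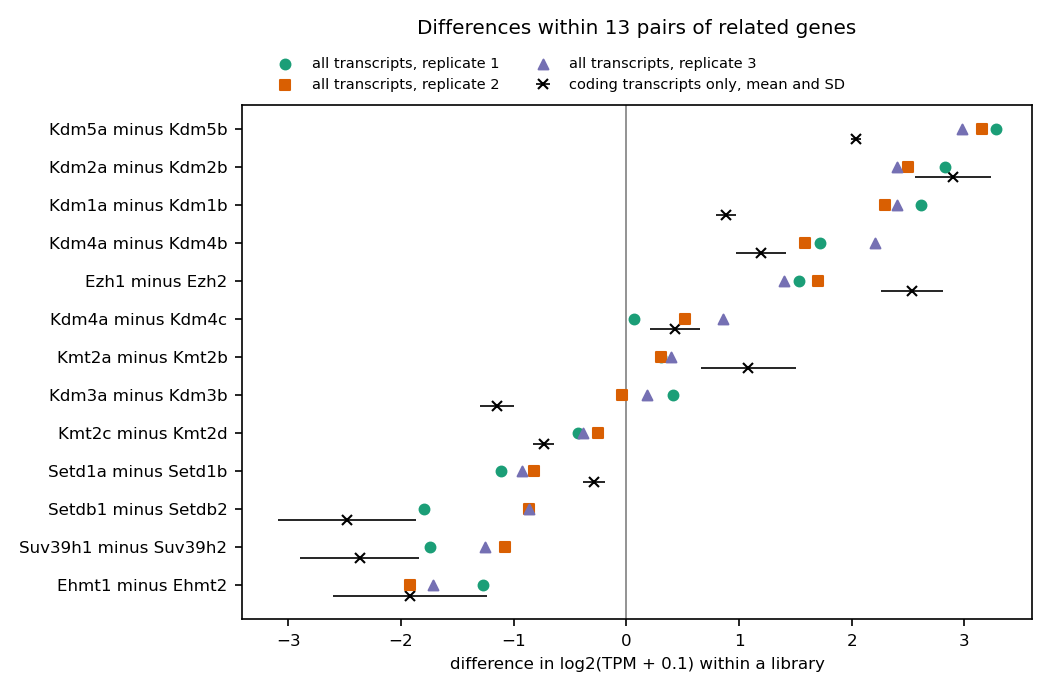
Difference in log2(TPM + 0.1) between the first and second gene of 13 pairs in each library (colored points), with the mean and SD over 3 libraries when only coding transcripts are counted (crosses). Points to the right of 0 mean that the first gene is higher. Kdm5a minus Kdm5b lies farthest right, and Kdm3a minus Kdm3b lies around 0 for all transcripts but at -1.15 for coding ones.

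The annotated class of the transcripts behind these levels differed strongly from gene to gene. Retained-intron transcripts carried 87.9%, 84.8% and 84.5% of the TPM of Eed in replicates 1, 2 and 3. They carried 77.9%, 75.5% and 73.6% of that of Kdm1a and 70.7%, 69.6% and 69.6% of that of Setdb1. In Smyd5 (65.5% ± 4.13), Kdm3a (58.7% ± 4.37), Kdm2b (55.0% ± 1.87) and Kdm2a (54.4% ± 3.21; SD, n = 3) they also held most of the TPM. Suz12 averaged 56.8% ± 8.53, with 48.1% in replicate 3. The spread between libraries was small against the differences between genes, except in thinly covered Suv39h1, where the share was 49.2%, 67.5% and 30.3%, and in Kmt2b (62.6%, 39.4% and 41.0%) and Ezh2 (45.4%, 51.9% and 28.8%).

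At the other end, Setd1a and Suv39h2 had 100.0% of their TPM on coding transcripts, Kmt2d had 99.0% ± 1.79 and Kdm4b 97.8% ± 3.73 (SD, n = 3). The annotation holds no retained-intron transcript for 11 of the 37 genes, among them Setd1a, Suv39h2, Kmt2d, Kmt2a and Kdm4b, so their share is 0 by construction. In Ezh1 and Wdr5, both without such a transcript, 50.5% and 49.8% of TPM lay on processed transcripts with no coding frame. Transcripts marked for nonsense-mediated decay, the pathway that destroys mRNA with an early stop codon, held 27.3% ± 7.71 of Kmt2e, 23.3% ± 16.5 of Ezh2, 21.9% ± 3.77 of Kdm5a and 14.9% ± 3.18 of Kmt2a. The single transcript with the highest mean TPM was a coding one in 27 genes and a retained-intron one in 10. The same count over other genes is not given here.

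**Figure D3:**
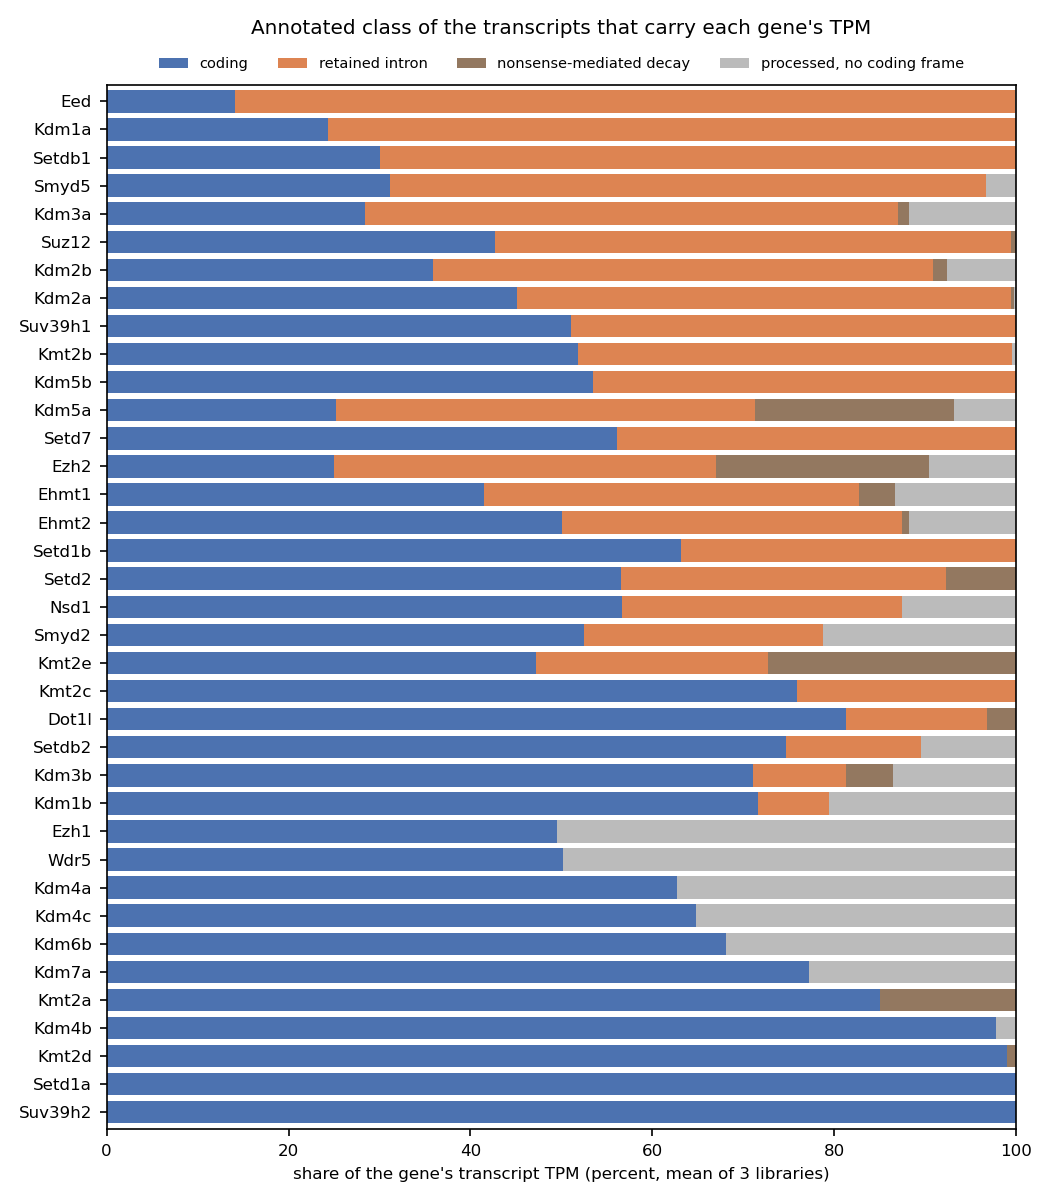
Share of each gene's transcript TPM (percent, mean of 3 libraries) on coding, retained-intron, nonsense-mediated decay and processed transcripts, sorted by the retained-intron share. Eed is at the top with 85.7% on retained-intron transcripts, and Setd1a and Suv39h2 at the bottom have 100.0% on coding ones.

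By TPM, the shares over the list as a whole lay near those of other genes. The median retained-intron share was 30.2% ± 3.38 over the 37 genes and 25.8% ± 0.809 over the 10050 detected protein-coding genes (SD over libraries, n = 3). Among genes with at least 1 annotated retained-intron transcript, it was 41.9% ± 2.18 over 26 members and 45.6% ± 0.711 over 6342 detected genes, so the order of the groups turned round. Writers and erasers also changed places. The 24 writers had a median of 31.5% ± 2.94 and the 13 erasers 10.2% ± 0.690, but among genes with such a transcript the 18 writers had 37.7% ± 1.53 and the 8 erasers 51.2% ± 0.845.

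The unit of the share mattered more than the library. TPM divides by transcript length, and expected counts do not. By expected counts the median share over the 37 genes was 10.5% ± 1.01, against 30.2% by TPM. Over the 10050 detected protein-coding genes it was 9.09% ± 0.43 by counts. Among the 26 members with an annotated retained-intron transcript, the median by counts was 17.2% ± 1.03. That was below the 29.2% ± 1.12 over the 6342 detected genes with such a transcript. For Suz12 the share was 12.1% by counts and 56.8% by TPM, for Kmt2b 5.72% and 47.7%, and for Eed 59.0% and 85.7%. Setdb1 kept 65.7% by counts, close to its 70.0% by TPM, and its transcript Setdb1-204 averaged 12.7 ± 1.77 TPM against 7.83 ± 1.65 TPM for the main coding transcript Setdb1-202. Eed-203 averaged 20.99 ± 6.94 TPM against 9.31 ± 1.12 TPM for Eed-201, the main coding transcript of Eed. The read-based tables gave a median share of 29.9% ± 1.95 by TPM, with 85.5% for Eed and 40.8% for Kdm2a.

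Counting coding transcripts only, chosen after seeing these shares, gave another order of the genes. Kmt2d became the highest with 99.2 ± 4.52 TPM, followed by Nsd1 with 84.1 ± 7.75 TPM and Ehmt2 with 76.5 ± 17.0 TPM (SD, n = 3). Eed moved from the 5th to the 23rd place with 11.5 ± 1.46 TPM, close to Suz12 with 10.8 ± 0.394 TPM. Kdm3a moved from the 10th to the 19th place with 17.4 ± 1.53 TPM, and Kdm5a from the 14th to the 22nd with 13.1 ± 1.31 TPM. Ezh2 was left with 3.02 ± 0.867 TPM, and the difference from Ezh1 was 2.53 ± 0.27 on the log2 scale (5.79-fold). All 37 genes still reached 1 TPM in each library. The writers remained above the erasers, by 0.52 ± 0.07 on the log2 scale with coding transcripts only.

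**Figure D4:**
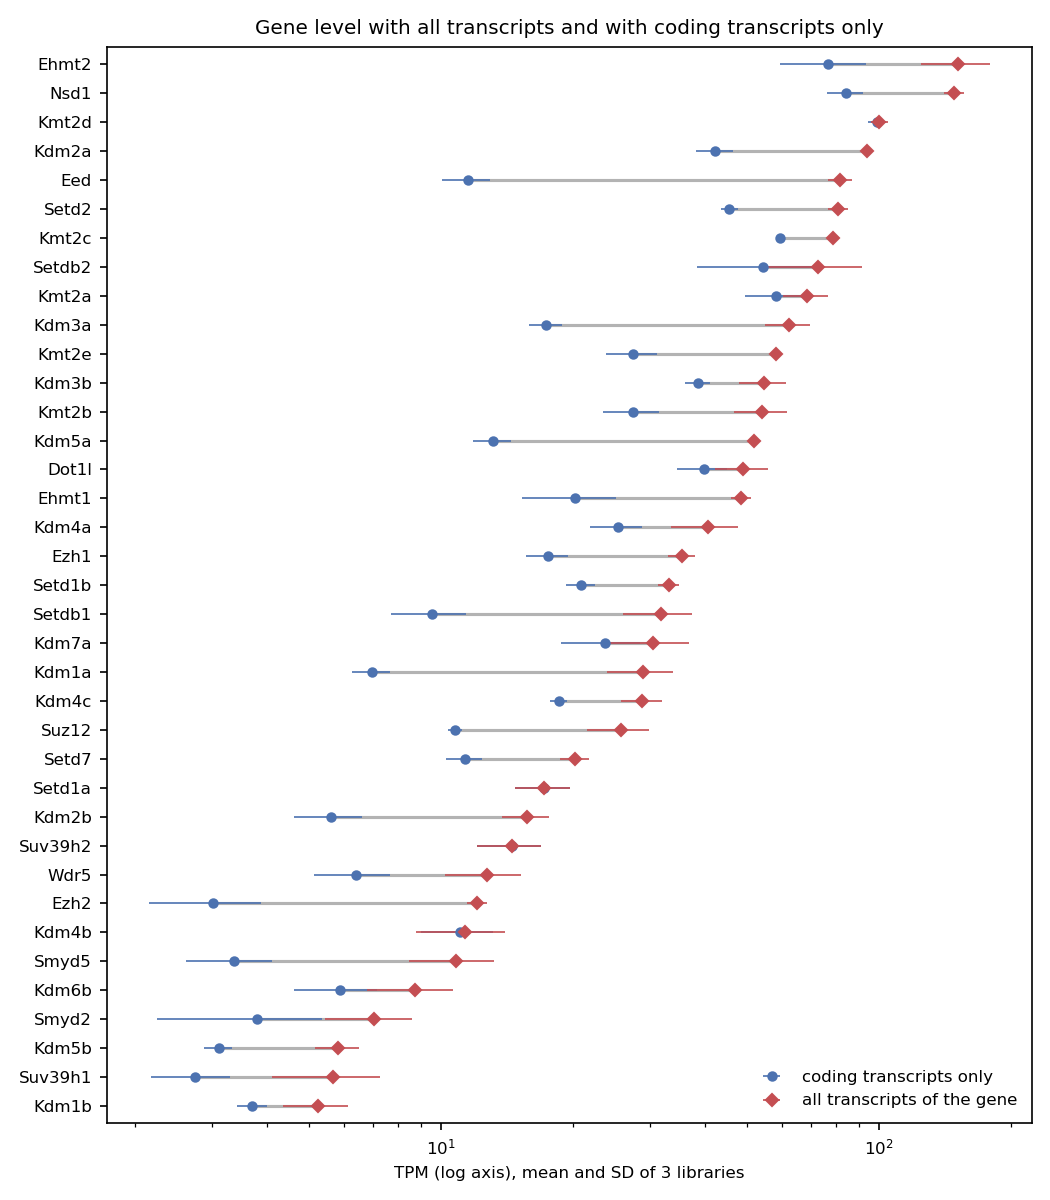
Mean and SD over 3 libraries of each gene's TPM (log axis) from all its transcripts (diamonds) and from its coding transcripts only (circles), in order of the first. Eed has the longest line, with 11.5 TPM on coding transcripts and 81.6 TPM in all, and Kmt2d one of the shortest, with 99.2 and 100.2 TPM.

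The last comparison asked whether any of the genes varied between the 3 libraries more than genes of like count did. Across the whole gene table, edgeR's goodness-of-fit test of a model with 1 level for all libraries called 167 of 14789 genes at a Benjamini-Hochberg adjusted p under 0.05, which is 1.13%. Of the 37 histone methylation genes it called 0, with 1 at an unadjusted p under 0.05, and DESeq2's dispersion outliers included 0 as well. Of all 14789 genes, 922 were at an unadjusted p under 0.05 by the edgeR test, and 61 were DESeq2 dispersion outliers. The 1 member is therefore no excess over the other genes. The test compares libraries and not conditions, and a p from it speaks only of how far these 3 libraries lie apart, which may be technical in part. A count of 0 does not show that the levels were equal.

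The gene at the unadjusted threshold was Setdb2. It had 7.52, 6.87 and 6.72 log2 CPM in replicates 1, 2 and 3, with replicate 1 highest, and an SD of 0.43 (adjusted p = 0.417 by edgeR's goodness-of-fit test). Its edgeR adjusted p ranged from 0.7505 to 0.9998 when 1 library was left out. Kdm7a came next, with 8.04, 7.76 and 7.46 log2 CPM (adjusted p = 0.9998 by the same edgeR test). Ezh2 spread least, at 3.81, 3.82 and 3.80 log2 CPM. RNA input differed between these libraries, at 1 µg, 250 ng and 500 ng in replicates 1, 2 and 3 per the labels, and its part in any spread cannot be told apart from that of the cultures.

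The median SD of log2 CPM was 0.12 over the 37 genes, 0.19 over all genes tested and 0.18 over protein-coding ones. The 37 genes also had higher counts, with a median of 6.49 log2 CPM, against 3.55 for all genes tested. Of the 37 genes 13 were highest in replicate 1, 12 in replicate 2 and 12 in replicate 3. Over all genes tested, 5633 were highest in replicate 1, 4364 in replicate 2 and 4792 in replicate 3.

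**Figure D5:**
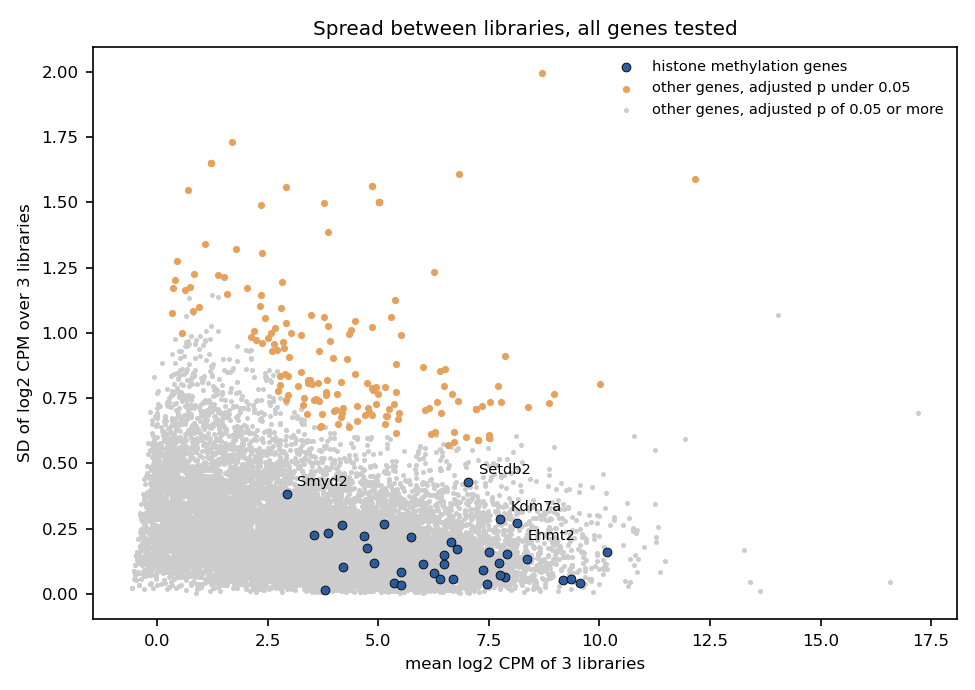
SD of log2 CPM over 3 libraries against mean log2 CPM for 14789 genes tested, with the 37 histone methylation genes in blue and other genes with an adjusted p under 0.05 in orange. Setdb2 has the largest SD of the blue points, 0.43, and none of them lies among the orange ones.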

How the data were processed

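The authors deposited, for each of the 3 libraries, a gene table and a transcript table with expected counts and TPM, made from transcriptome alignments to mm10 with GENCODE M21, per the file headers and the notes beside them. A further transcript table of estimated counts and TPM, deposited for each library, was read-based and was summed per gene here. For the aligner, the quantifier, their versions and the strand, the setting is not given in the sources used here. Entries that are no gene (1.39%, 0.288% and 0.283% of each library's expected counts, replicate 1 first) were left out of library sizes and tests. Limits at 3 counts cover counting error alone, as the reads carry no molecular identifiers.

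Transcript classes came from GENCODE M21, which held all 55536 gene identifiers. Levels were summarised as log2(TPM + 0.1). Paralogues were subtracted within a library and tested by exact two-sided sign flips. Expected counts were rounded, filtered by filterByExpr, scaled by TMM and fitted in edgeR 4.0.16 (R 4.3.3) with an intercept-only model and trended dispersion, and each gene's deviance was adjusted over all genes. DESeq2 1.42.0 was an alternative. log2 CPM used a prior count of 2. This fit was first tested on simulated data. Python 3.11.15 with pandas 2.3.3 and numpy 2.4.6 served for the rest. The genes, gene lists and tests were chosen with earlier results of these data known. All 37 genes were named, and of other lists of the pathway the 2 highest and the lowest, with Trim28 as the second highest of its list. Of the marker lists, the macrophage and dendritic cell genes named are the highest, and the markers named at 0 counts were chosen after their values were seen. The values of some markers are not reported here. The count of coding transcripts only and the read-based marker counts were added after seeing the data.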

Additional observations from a re-analysis of the deposited data

How the results depend on the processing

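No paired analysis was possible because there is 1 group of libraries. All 37 genes were detected in the read-based tables, with coding transcripts only and at a TPM threshold of 0.5, and 35 at a threshold of 5. Among the 37 genes, the excess of writers over erasers stayed between 0.34 and 0.61 on the log2 scale under every alternative run. Leaving out a library was included. The median retained-intron share moved to 10.5% with expected counts. No alternative called any of the 37 genes as varying between libraries. The number of all genes called was 167 in the report, 271 with read-based counts and 61 by DESeq2 dispersion outliers. It was between 52 and 68 with 1 library left out. The causes of these differences were not tested. Kdm3a minus Kdm3b turned negative in the read-based tables (-0.74), in CPM without length scaling (-1.05) and with coding transcripts only (-1.15), and Setd1a minus Setd1b turned positive in the read-based tables (0.095). Of the 37 gene levels, 27 moved by more than 1 SD in the read-based tables and 32 with coding transcripts only. For marker lists the read-based counts are in the report. Depth limits Smyd2 and Suv39h1 most, which had the fewest expected counts.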

Other observations

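The read-based tables gave higher levels than the gene tables for 31 of the 37 genes. For 4 genes the read-based mean was at least 2 times the gene-table mean. The same counts over all genes are not given here, so they cannot be read as particular to the 37 genes. Kdm4b had 29.1 ± 6.84 TPM in the read-based tables and 11.4 ± 2.61 TPM in the gene tables, Kdm3b 128 ± 17.7 and 54.6 ± 6.71 TPM, Wdr5 26.98 ± 3.49 and 12.7 ± 2.53 TPM, and Kdm2b 32.9 ± 1.68 and 15.7 ± 1.94 TPM (SD, n = 3). Much of the gap for Kdm3b and Kdm4b lay on 1 processed transcript each. Kdm3b-203 had a mean of 76.5 TPM and Kdm4b-206 of 15.1 TPM in the read-based tables, and both had 0 TPM in the other transcript tables. Setd1a had 33.1 ± 1.33 TPM in the read-based tables and 17.2 ± 2.46 TPM in the gene tables. Exon bases are shared with another annotated gene by 19 of the 37 genes, and with a gene on the other strand by 18, and 9 share 5% or more of them.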
